A study of Rattus norvegicus with 9 samples.

Results

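The genes described here act in mitosis and chromosome segregation. They come from a list of 45 genes covering mitotic cyclins and kinases, the spindle checkpoint, the kinetochore, the chromosomal passenger complex, the spindle, condensin and cytokinesis, whose rows were found by gene symbol. Of the 45, 43 had a row in the table of 18924 genes, and all 43 passed the filter on low counts, which kept 13856 genes. Ccnb2 and Nek2 found no row and are not analysed here. RNA was sequenced from primary chondrocytes, the cells that make cartilage matrix, taken from rat cartilage (strain labelled SD) and used at passage 1 or 2. Each group had 3 libraries and 24 h of treatment. RPTi cells received rat plasma, thrombin and an unnamed inhibitor, RPT cells received rat plasma and thrombin, and RP cells received rat plasma alone, so plasma was common to all of them. The sources used here state no age or sex, and do not say if libraries of a group are separate animals or cultures. The p-values therefore cover only library-to-library spread, which may be technical. The series was made to ask how thrombin, the clotting protease that also signals through cell-surface receptors, acts on chondrocytes.

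A dividing cell enters mitosis when CDK1 bound to cyclin A or cyclin B becomes active, and leaves it when the anaphase-promoting complex (APC/C) marks cyclins and securin for destruction. Between these events condensin compacts the chromosomes, kinetochores attach them to spindle microtubules, the spindle checkpoint holds anaphase back until attachment is complete, and cytokinesis then parts the daughter cells. Transcripts of many of these genes are made mainly late in the cell cycle, through the MuvB complex with B-MYB and FOXM1, and are kept low in resting cells by the related DREAM complex. In cartilage, division is a feature of proliferating chondrocytes and of chondrocytes in culture, while matrix-making chondrocytes of the adult joint divide little. RNA from bulk cultures cannot separate a smaller share of dividing cells from less mitotic RNA per dividing cell.

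Library totals were 31877265 to 43962783 counts, and log2(CPM + 1) values correlated at 0.993 to 0.997 within groups, where CPM is the count scaled to library size with TMM factors. Chondrocyte markers were high in every library. Their 13 genes summed to 16871 to 18466 FPKM (CPM without TMM scaling, per kilobase of gene length) in RPTi, 7094 to 7621 FPKM in RPT and 11432 to 11599 FPKM in RP. All 13 were lower in RPT than in RP and higher in RPTi than in RPT at an adjusted p below 0.05, the opposite direction to the mitosis genes, and their part in the results was not tested. The 6 fibroblast markers summed to 3035 to 3323 FPKM in RPTi, 2120 to 2253 FPKM in RPT and 3212 to 3420 FPKM in RP, mostly from Col1a1 and Col3a1, and they did not move as one. In RPTi against RPT 2 of the 6 rose and 3 fell. Col1a1 averaged 2096 ± 142 FPKM in RPTi and 1151 ± 74.1 FPKM in RPT. Col3a1 averaged 689.9 ± 11.4 FPKM in RPTi and 522 ± 25.7 FPKM in RPT. Lower in RPTi, as the mitosis genes were, was Pdgfra, at 22.1 ± 0.187 FPKM in RPTi and 37.6 ± 3.06 FPKM in RPT. So were Thy1, at 288 ± 24.0 FPKM in RPTi and 414 ± 23.1 FPKM in RPT, and Twist1, at 10.7 ± 0.389 FPKM in RPTi and 20.3 ± 1.56 FPKM in RPT (SD, n = 3). In RPT against RP 1 of the 6 rose and 3 fell. There only Twist1 had a lower mean in RP, at 15.7 ± 1.07 FPKM. Pdgfra was at 43.5 ± 2.02 FPKM and Thy1 at 423 ± 22.1 FPKM in RP. Their part in the results was not tested either. The 6 macrophage and leukocyte markers in the table summed to 14.2 to 16.8 FPKM in RPTi, 27.3 to 28.6 FPKM in RPT and 14.1 to 16.5 FPKM in RP, mostly from Cd14. Of their defining genes, Ptprc had 0 to 4 counts in any library, Adgre1 0 to 5 and Aif1 0 to 2. The 3 that passed the filter were Cd14, Cd68 (70 to 164 counts) and Csf1r (12 to 44 counts). In RPT against RP 2 of these 3 rose and 1, Csf1r, fell, a fall that DESeq2 and limma did not call. In RPTi against RPT 2 fell and 0 rose. The 2 moved in the direction of the mitosis genes, and their part in the results was not tested. The 4 endothelial markers in the table stayed at or under 0.230 FPKM in sum. 

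Promoter sequences show a feature that many of these genes share. The cell cycle genes homology region (CHR, TTTGAA or TTCGAA) is the element that MuvB binds, and CCAAT boxes are the element of NF-Y. RefSeq promoters of the build GRCr8, which is not the Rnor_6.0 build of the counts, were matched through gene identity for 36 of the 43 genes, and cover 250 bases before the annotated start and 50 from it on. Both strands were searched. The 7 genes with no promoter in that table were Ccna2, Aurkb, Ube2c, Incenp, Tpx2, Racgap1 and Foxm1. The following stretches, each 200 bases that end 50 bases into the transcript, are shown for 1 gene of each of 7 roles because they hold both elements, in capitals. A CCAAT box on the other strand reads ATTGG, and TTTGAA on the other strand reads TTCAAA.
Cdk1 (GRCr8 chr20:19265143-19265342, plus strand): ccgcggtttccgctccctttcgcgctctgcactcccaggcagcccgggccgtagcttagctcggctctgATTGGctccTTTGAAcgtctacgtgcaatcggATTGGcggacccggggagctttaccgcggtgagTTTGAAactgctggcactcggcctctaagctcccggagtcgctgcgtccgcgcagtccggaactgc
Plk1 (GRCr8 chr1:186147508-186147707, plus strand): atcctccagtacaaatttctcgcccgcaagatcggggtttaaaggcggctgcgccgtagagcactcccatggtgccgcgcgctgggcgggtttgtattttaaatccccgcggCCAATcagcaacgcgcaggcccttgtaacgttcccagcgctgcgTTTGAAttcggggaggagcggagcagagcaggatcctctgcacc
Pttg1 (GRCr8 chr10:28406277-28406476, minus strand): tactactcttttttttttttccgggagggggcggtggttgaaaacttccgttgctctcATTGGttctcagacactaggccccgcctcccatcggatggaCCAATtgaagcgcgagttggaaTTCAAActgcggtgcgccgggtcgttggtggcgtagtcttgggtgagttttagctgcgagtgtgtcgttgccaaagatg
Cenpf (GRCr8 chr13:103760837-103761036, minus strand): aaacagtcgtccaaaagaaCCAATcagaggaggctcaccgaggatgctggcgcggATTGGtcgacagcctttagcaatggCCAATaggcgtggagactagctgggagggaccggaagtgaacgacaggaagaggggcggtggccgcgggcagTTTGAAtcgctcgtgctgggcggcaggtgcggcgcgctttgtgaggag
Cdca8 (GRCr8 chr5:142483150-142483349, minus strand): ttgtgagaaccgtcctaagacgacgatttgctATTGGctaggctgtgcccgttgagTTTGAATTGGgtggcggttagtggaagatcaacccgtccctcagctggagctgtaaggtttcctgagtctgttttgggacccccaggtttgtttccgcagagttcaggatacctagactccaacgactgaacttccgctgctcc
Prc1 (GRCr8 chr1:143659331-143659530, plus strand): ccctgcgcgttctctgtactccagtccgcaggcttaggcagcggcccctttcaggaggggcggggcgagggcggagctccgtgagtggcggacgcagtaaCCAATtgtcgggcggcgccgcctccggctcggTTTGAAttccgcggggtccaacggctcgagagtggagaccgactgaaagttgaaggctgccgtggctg
Ncapd2 (GRCr8 chr4:159677889-159678088, minus strand): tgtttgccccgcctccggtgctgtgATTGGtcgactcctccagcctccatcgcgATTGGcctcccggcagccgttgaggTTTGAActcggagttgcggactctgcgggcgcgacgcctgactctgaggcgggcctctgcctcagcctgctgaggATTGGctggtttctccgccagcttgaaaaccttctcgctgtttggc
In Cdca8 the CHR and a CCAAT box share 1 base.

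A CHR letter match was present in 28 of the 36 promoters (77.8%), against 13.4% of the 9917 promoters of tested genes. CCAAT was present in 28 of 36 (77.8%), against 37.7%, and at least 2 CCAAT boxes in 20 of 36 (55.6%), against 13.6%. Both elements stood in 23 of 36 (63.9%), against 5.56%. The 35 CHR matches lay close to the start, with a median centre at -33.5 bases and quartiles of -76 and -3.5. The 64 CCAAT matches had a median of -99 bases and quartiles of -174.5 and -67.25. Positions in promoters of other genes were not compared, so no preferred place in the window can be read from these values. The 8 genes without a CHR match in this window were Aurka, Bub1, Ccnb1, Cenpe, Kif11, Kif20a, Kif2c and Spc24. Their median log2 fold changes were near those of the 28 with one, at -0.47 against -0.52 in RPTi versus RPT, -0.21 against -0.22 in RPTi versus RP, and 0.36 against 0.31 in RPT versus RP. These are matches of letters in a window and not sites of binding.

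**Figure D1:**
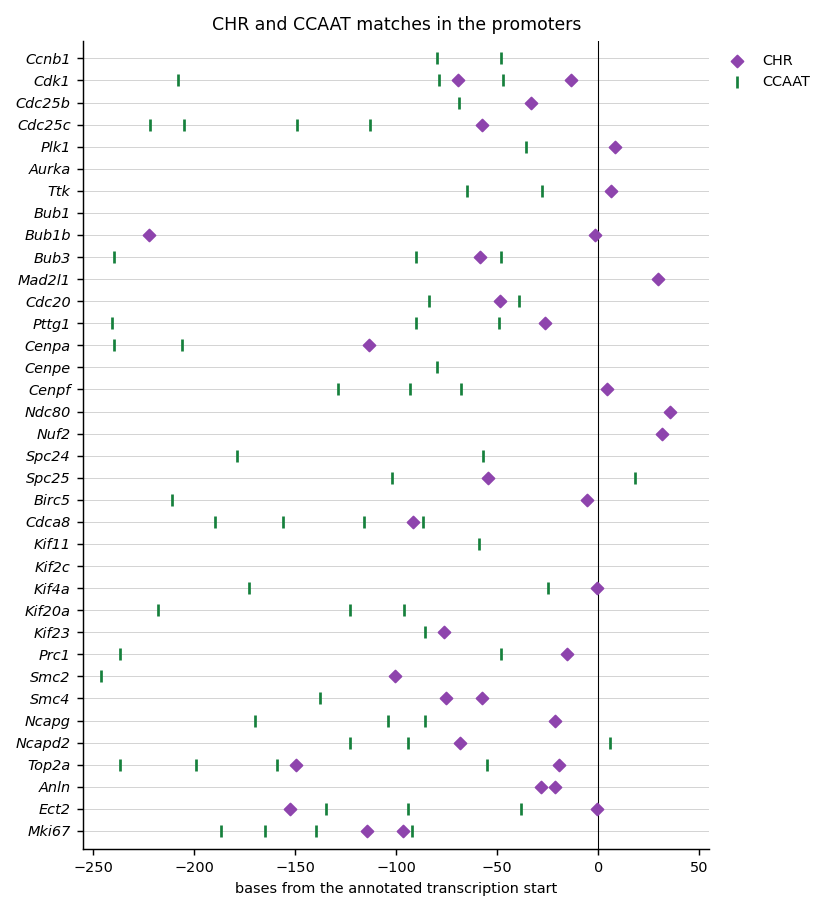
Positions of CHR (diamonds) and CCAAT (bars) matches on either strand in the promoters of 36 mitosis genes, one gene per row, against the distance in bases from the annotated transcription start. The 35 CHR matches have a median centre of -33.5, and the 64 CCAAT matches a median of -99. Positions in promoters of other genes were not compared.

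Mitosis genes were highest with thrombin, and with the inhibitor they lay below thrombin and, in many cases, below plasma alone. The mean CPM over 3 libraries was highest in RPT for all 43 genes. Their summed level was 2931 ± 33.4 CPM in RPTi, 4179 ± 223 CPM in RPT and 3364 ± 205 CPM in RP (SD, n = 3 each). Without TMM scaling they held 0.285%, 0.427% and 0.339% of the counts. The 3 libraries of each group did not overlap in the summed CPM, at 2893 to 2954 CPM in RPTi, 4009 to 4431 CPM in RPT and 3200 to 3594 CPM in RP. Across the 3 groups, 36 of the 43 genes differed (F test, edgeR's quasi-likelihood model, adjusted p below 0.05), where 46.7% of all tested genes did.

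In RPT against RP, 26 of the 43 genes rose, none fell and 17 did not pass, while 13.6% of all tested genes rose and 15.2% fell, 28.9% in all. At an unadjusted p below 0.05, edgeR gave 31 higher and 0 lower, DESeq2 gave 30 higher and 0 lower at an adjusted p below 0.05, and limma on log2(FPKM + 1) gave 26 higher and 0 lower. Fold changes were small. The median log2 fold change was 0.33 over the 43 genes and -0.00071 over all tested genes, and the 43 values ran from 0.07 to 0.62, so that every gene was above 0. Without RPT replicate 1, Cenpe (-0.012), Smc2 (-0.13), Smc4 (-0.31) and Ncapg (-0.32) were below 0. Those that passed were 1.15-fold to 1.54-fold higher in RPT. The lowest RPT library was above the highest RP library for 27 of the 43 genes, against 20% of all tested genes. Without RP replicate 3 the count of genes that rose was 32. Those that then passed and did not with all libraries were Nuf2 (0.42), Ndc80 (0.32), Kif23 (0.32), Ttk (0.41), Bub1 (0.43), Top2a (0.33) and Kif11 (0.24). Without RPT replicate 2, Nuf2 (0.39), Bub1b (0.29), Ndc80 (0.29) and Kif23 (0.35) passed too.

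In RPTi against RPT, 38 of the 43 genes fell, none rose and 5 did not pass, while 21.1% of all tested genes fell and 20.4% rose, 41.5% in all. No gene was higher at an unadjusted p below 0.05 either, DESeq2 gave 36 lower and 0 higher, and limma gave 38 lower and 0 higher. The median log2 fold change was -0.53 over the 43 genes and -0.0083 over all tested genes, within a range of -0.85 to -0.20, and those that passed were 1.15-fold to 1.80-fold lower in RPTi. For 37 of the 43 genes every RPTi library was below every RPT library, against 26% of all tested genes (24.8% had every RPTi library above). The 5 that did not pass were Cenpe, Cenpf, Smc2, Smc4 and Ncapg, and without RPT replicate 1 their values were above 0 (0.03 to 0.17). Of all genes called in this comparison 49.2% were higher, or 38.4% with scaling by library totals alone and 36.5% with limma on log2(FPKM + 1), while the median of the 43 genes was -0.60 and -0.56 under these. This comparison and RPT against RP share the RPT libraries, so their opposite signs are not independent of each other.

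In RPTi against RP, 14 of the 43 genes fell, none rose and 29 did not pass, while 12.3% of all tested genes fell and 11.9% rose, 24.2% in all. At an unadjusted p below 0.05, 22 were lower and 1 was higher (Foxm1), and DESeq2 gave 16 lower and 0 higher at an adjusted p below 0.05. The median log2 fold change was -0.18, against -0.0064 over all tested genes, and the 43 values ran from -0.44 to 0.19, with 7 above 0. Of all genes called 49.1% were higher, or 36.6% with library totals alone and 37.6% with limma on log2(FPKM + 1), and the median of the 43 genes was -0.23 and -0.22 under these. The 14 that passed were 1.18-fold to 1.36-fold lower in RPTi. Their number was 8 without RPTi replicate 1 and 22 with limma on log2(FPKM + 1). RPTi libraries lay below all RP libraries for 22 of the 43 genes, against 22.2% of all tested genes, and above them for 1 gene, Foxm1, against 21.7%.

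All 3 groups stood apart in the order RPT, RP, RPTi for 14 of the 43 genes, against 5.19% of all tested genes. They were Ccna2, Ccnb1, Cdk1, Aurkb, Bub1b, Mad2l1, Ube2c, Pttg1, Incenp, Kif2c, Kif20a, Tpx2, Prc1 and Anln. By group means alone, 36 of the 43 genes had this order, against 24.1% of all tested genes. Standing apart is not the same as passing the tests. Of the 14 genes, Cdk1, Aurkb, Ube2c, Incenp, Kif20a and Prc1 did not pass in RPTi against RP. Bub1b did not pass in RPT against RP.

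**Figure D2:**
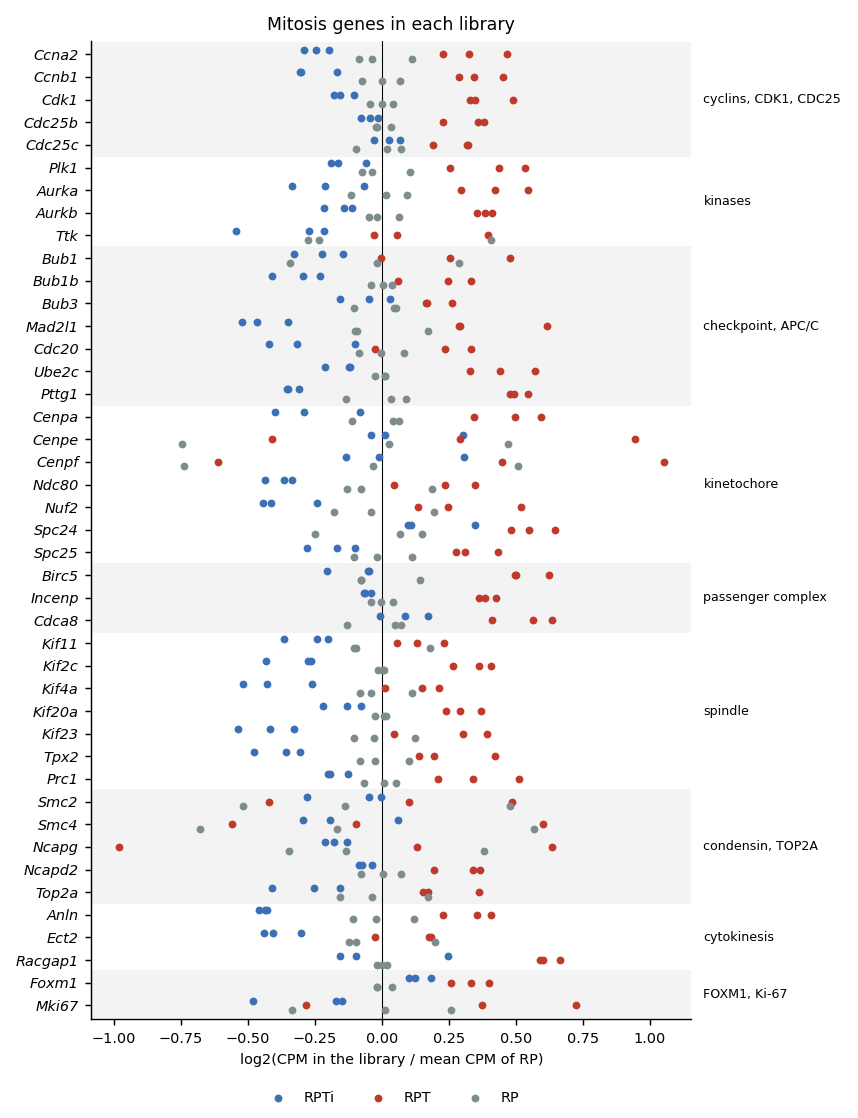
Each point is 1 library's level of 1 gene, as log2 of its CPM over the mean CPM of the 3 RP libraries, with the 43 genes in rows by role and the groups RPTi, RPT and RP in colour. RPT points lie to the right for most genes, RPTi points to the left, and 8 genes, among them Cenpf, Cenpe, Ncapg and Smc4, are spread widely within groups.

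**Figure D3:**
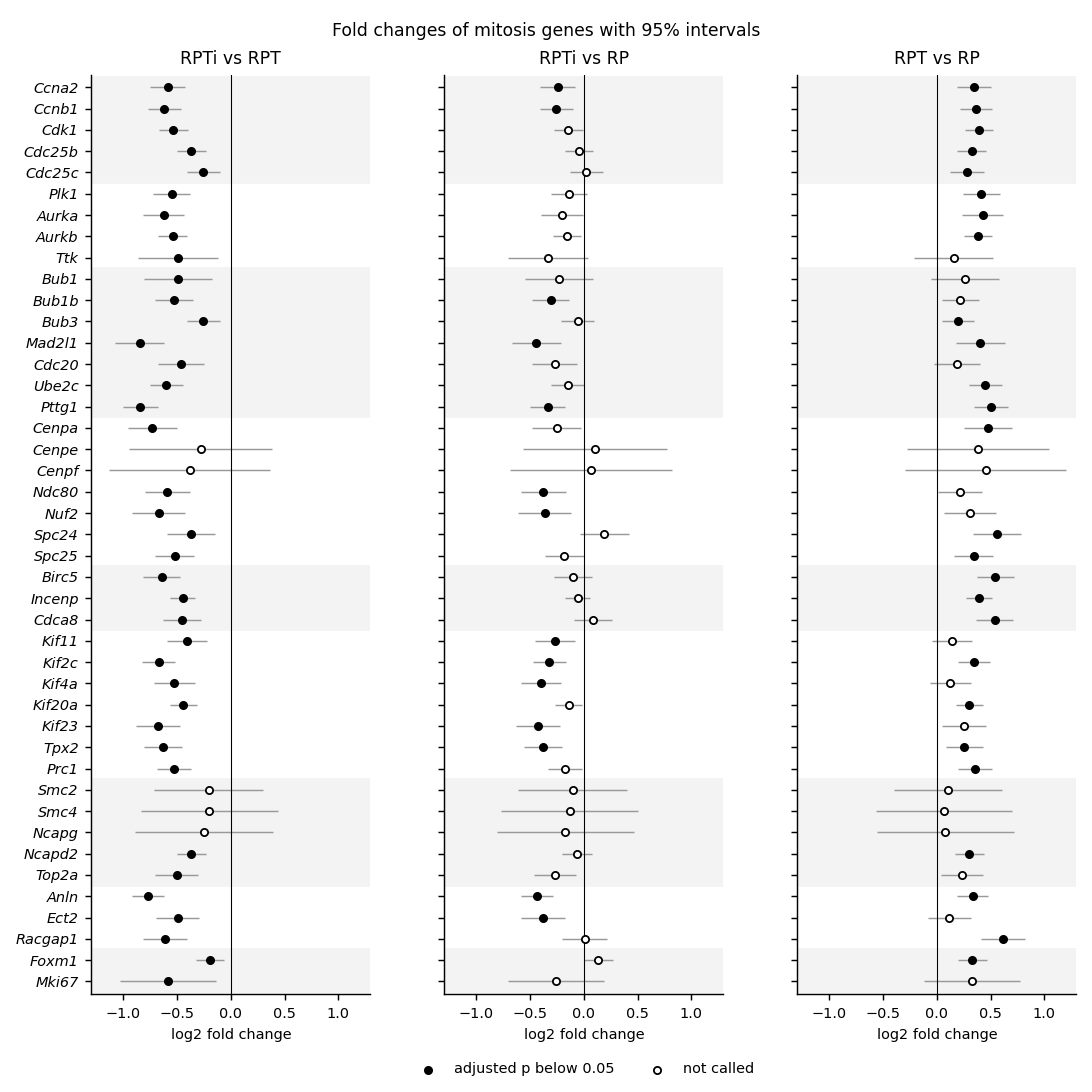
Log2 fold change of each of the 43 genes with its 95% interval (edgeR's quasi-likelihood test) for RPTi against RPT, RPTi against RP and RPT against RP; filled points passed an adjusted p of 0.05. Of the filled points, 38 lie below 0 in the first comparison, 14 below 0 in the second and 26 above 0 in the third.

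The mitotic cyclins, CDK1 and the CDC25 phosphatases that activate it moved as a whole: all 5 tested genes rose in RPT against RP, all 5 fell in RPTi against RPT, and 2 fell in RPTi against RP. For these and the role counts below, the shares over all tested genes were 13.6% higher in RPT against RP and 21.1% lower in RPTi against RPT. In RPTi against RP 12.3% of all tested genes were lower. Ccna2, cyclin A2, was at 93.3, 87.3 and 90.2 CPM in the RPTi libraries, 134, 125 and 148 CPM in the RPT libraries and 104, 101 and 115 CPM in the RP libraries. The 3 groups did not overlap. Its log2 fold change was -0.59 (SE 0.07, adjusted p = 3.96e-05) in RPTi against RPT and 0.34 (SE 0.07, adjusted p = 0.004) in RPT against RP. In RPTi against RP it was -0.24 (SE 0.07, adjusted p = 0.0314), a call that was lost without any 1 of the 3 RPTi libraries, RP replicate 1 or RP replicate 3 (values of -0.27 to -0.18). Ccnb1, the cyclin B1 that carries CDK1 into mitosis, was at 56.8, 62.6 and 57.0 CPM in the RPTi libraries, 89.1, 85.7 and 96.2 CPM in the RPT libraries and 73.6, 66.7 and 70.3 CPM in the RP libraries. It too had no overlap between groups, with -0.62 (SE 0.07, adjusted p = 1.52e-05) in RPTi against RPT and 0.36 (SE 0.07, adjusted p = 0.00189) in RPT against RP. In RPTi against RP it was at -0.26 (SE 0.07, adjusted p = 0.0185), which did not pass without RPTi replicate 1 (-0.23), RPTi replicate 3 (-0.24) or RP replicate 1 (-0.22). 

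Cdk1, the kinase itself, was at 95.1, 98.6 and 93.4 CPM in the RPTi libraries, 135, 133 and 149 CPM in the RPT libraries and 103, 106 and 109 CPM in the RP libraries. Every RPT library was above every RP library, and every RPTi library was below both, yet the step below RP was small. The log2 fold change was -0.54 (SE 0.06, adjusted p = 1.65e-05) in RPTi against RPT, 0.39 (SE 0.06, adjusted p = 0.000416) in RPT against RP and -0.14 (95% interval -0.28 to -0.012, adjusted p = 0.106) in RPTi against RP. Per length, Cdk1 had the highest mean of the 43 genes, at 65.9 ± 1.65 FPKM in RPTi, 100.3 ± 5.92 FPKM in RPT and 75.6 ± 2.60 FPKM in RP. Its lead over Cdc20 lay within their SDs, with Cdc20 at 58.2 ± 6.51, 84.2 ± 10.6 and 72.9 ± 3.74 FPKM. The phosphatase genes Cdc25b and Cdc25c had smaller differences in RPTi against RPT, at -0.37 and -0.26, and the call of Cdc25c was lost without RPTi replicate 1 (-0.23, adjusted p = 0.0563). In RPTi against RP both were near 0, at -0.044 and 0.024, and neither passed.

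**Figure D4:**
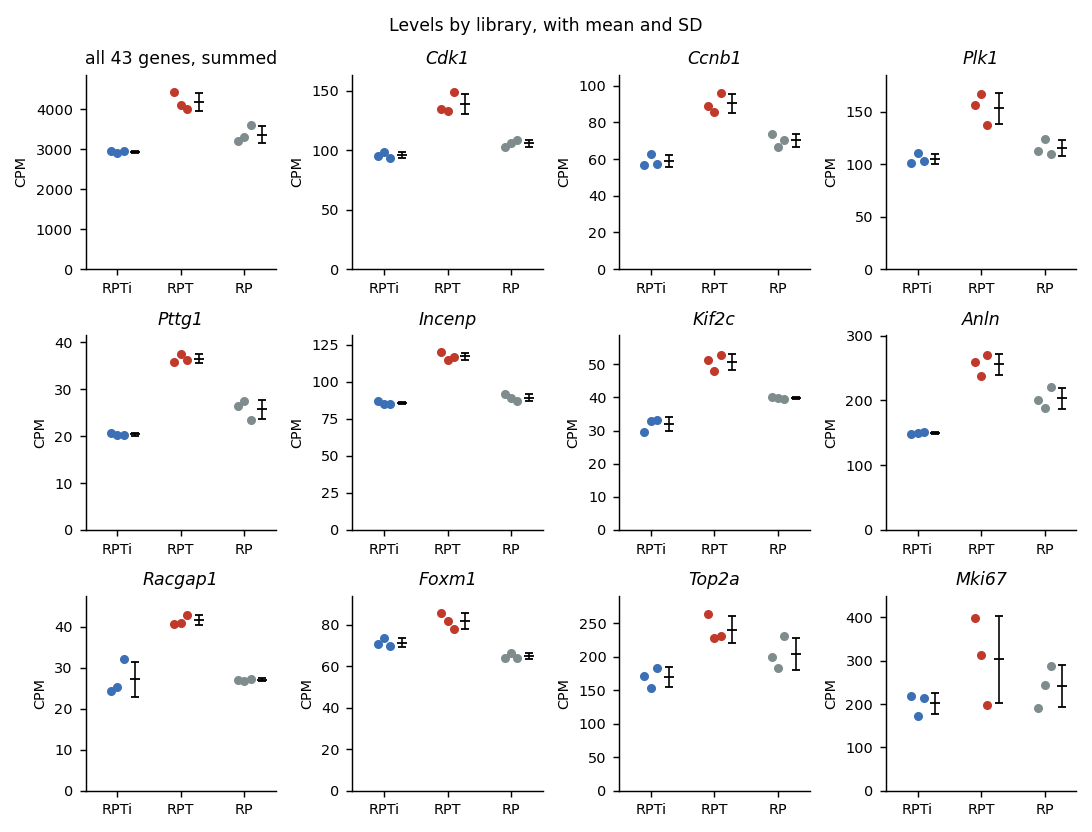
CPM in each library (points, RPTi, RPT and RP from left to right) with the mean and SD of 3 libraries beside them, for the sum over the 43 genes and for 11 of them. RPT is highest in each panel by its mean, the summed level lies between 4009 and 4431 CPM in RPT against 3200 to 3594 CPM in RP, and Mki67 shows overlap between all groups.

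Of the 4 mitotic kinases tested, 3 rose in RPT against RP, all 4 fell in RPTi against RPT, and none passed in RPTi against RP, where 2 were lower and 0 higher at an unadjusted p below 0.05, DESeq2 called 0 and limma on log2(FPKM + 1) called 1 lower. Plk1, the polo-like kinase of spindle assembly and mitotic entry, was at 101, 110.2 and 103 CPM in the RPTi libraries, 156, 167 and 137 CPM in the RPT libraries and 112, 124 and 109 CPM in the RP libraries. RPT stood above both other groups, and RPTi and RP overlapped. Its log2 fold change was -0.55 (SE 0.08, adjusted p = 0.000101) in RPTi against RPT and 0.42 (SE 0.08, adjusted p = 0.00157) in RPT against RP, and -0.14 (95% interval -0.31 to 0.033, adjusted p = 0.23) in RPTi against RP. Aurkb, the kinase subunit of the chromosomal passenger complex, was at 51.7, 55.5 and 54.5 CPM in the RPTi libraries, 79.9, 78.4 and 76.9 CPM in the RPT libraries and 62.7, 59.3 and 58.1 CPM in the RP libraries. No groups overlapped, with -0.54 (SE 0.06, adjusted p = 1.58e-05) in RPTi against RPT, 0.38 (SE 0.06, adjusted p = 0.000478) in RPT against RP and -0.16 (95% interval -0.29 to -0.022, adjusted p = 0.0857) in RPTi against RP. Aurka, the Aurora kinase of the spindle poles, was at -0.63, 0.43 and -0.20 in the same comparisons, of which the last did not pass. Ttk, the MPS1 kinase that starts checkpoint signalling, was at -0.49, SE 0.17 in RPTi against RPT. That call was lost without RPT replicate 1 (-0.35, adjusted p = 0.15) or any RPTi library. It was also lost with DESeq2 (adjusted p = 0.0736) and with limma on log2(FPKM + 1) without a filter (adjusted p = 0.0771).

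The spindle checkpoint and APC/C genes all fell in RPTi against RPT (7 of 7), while 4 of 7 rose in RPT against RP and 3 of 7 fell in RPTi against RP. Cdc20, which activates the APC/C at anaphase and is the target of the checkpoint, was at 127, 148 and 119 CPM in the RPTi libraries, 187, 199.6 and 156 CPM in the RPT libraries and 158, 168 and 149 CPM in the RP libraries. RPT replicate 3 lay within the RP range, and RPTi stayed below both. The fold change was -0.46 (SE 0.10, adjusted p = 0.00221) in RPTi against RPT, but 0.19 (95% interval -0.023 to 0.40, adjusted p = 0.172) in RPT against RP and -0.27 (95% interval -0.49 to -0.060, adjusted p = 0.0617) in RPTi against RP. Without RPT replicate 3, Cdc20 passed in both, at -0.27 in RPTi against RP and 0.29 in RPT against RP, and RPTi against RP also passed without RPT replicate 2 (-0.27) or RPTi replicate 2 (-0.37). Ube2c, the ubiquitin-conjugating enzyme of the APC/C, was at 60.6, 60.4 and 56.8 CPM in the RPTi libraries, 89.4, 97.8 and 82.7 CPM in the RPT libraries and 66.3, 64.6 and 66.3 CPM in the RP libraries. The groups stood apart, at -0.60 (SE 0.07, adjusted p = 1.87e-05) in RPTi against RPT and 0.45 (SE 0.07, adjusted p = 0.000366) in RPT against RP, while RPTi against RP did not pass at -0.15 (95% interval -0.30 to 0.0026, adjusted p = 0.142).

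Pttg1, securin, which keeps separase inactive until anaphase, was at 20.8, 20.2 and 20.2 CPM in the RPTi libraries, 35.8, 37.5 and 36.3 CPM in the RPT libraries and 26.3, 27.4 and 23.4 CPM in the RP libraries. Replicates of RPTi lay within 1 CPM of each other, and no groups overlapped. It passed in every comparison, at -0.84 (SE 0.07, adjusted p = 1.64e-06) in RPTi against RPT, -0.34 (SE 0.08, adjusted p = 0.00595) in RPTi against RP and 0.51 (SE 0.07, adjusted p = 0.000242) in RPT against RP. Mad2l1, the MAD2 protein of the checkpoint complex, had the lowest log2 fold change of the 43 genes in RPTi against RPT, at -0.85, SE 0.11. It was at -0.44 in RPTi against RP and 0.41 in RPT against RP, a call lost when RP replicate 1 was left out (0.36, adjusted p = 0.0525). Bub3, a checkpoint protein, was at 74.5, 78.6 and 69.3 CPM in the RPTi libraries, 86.6, 86.4 and 92.5 CPM in the RPT libraries and 79.5, 80.1 and 71.7 CPM in the RP libraries. RPT was above RP without overlap, but RPTi and RP overlapped. Its call in RPT against RP, 0.20 (SE 0.07, adjusted p = 0.0493), lay at the threshold. The call was lost without any 1 of the 9 libraries (0.15 to 0.22), with no filter on low counts (0.19) and with only the 2 groups compared (0.21). In RPTi against RPT, Bub3 was at -0.26 (SE 0.07, adjusted p = 0.0107), and this was lost without RPTi replicate 3 (-0.21, adjusted p = 0.0518). Bub1b, the checkpoint protein BUBR1, fell in RPTi against RPT (-0.53) and in RPTi against RP (-0.31, not without RPTi replicate 1, -0.26). Bub1, the checkpoint kinase, fell in RPTi against RPT (-0.49), a call lost without RPT replicate 1 (-0.36), RPTi replicate 1 (-0.49) or RPTi replicate 2 (-0.44).

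Of the 7 kinetochore and centromere genes, 5 fell in RPTi against RPT, 3 rose in RPT against RP and 2 fell in RPTi against RP. Cenpa, the histone H3 variant that marks the centromere, was at 8.90, 9.59 and 11.1 CPM in the RPTi libraries, 14.9, 17.7 and 16.6 CPM in the RPT libraries and 12.3, 10.9 and 12.1 CPM in the RP libraries. RPT stood above the other groups, which overlapped. The fold change was -0.73 (SE 0.11, adjusted p = 0.000114) in RPTi against RPT, 0.48 (SE 0.10, adjusted p = 0.00409) in RPT against RP and -0.25 (95% interval -0.48 to -0.022, adjusted p = 0.104) in RPTi against RP. Ndc80, the microtubule-binding arm of the outer kinetochore, was at 41.2, 39.2 and 42.1 CPM in the RPTi libraries, 62.6, 54.8 and 67.6 CPM in the RPT libraries and 50.3, 48.5 and 60.5 CPM in the RP libraries. RPTi stood below both other groups, while 2 RPT libraries were above every RP library and RPT replicate 2 was not. It fell in RPTi against RPT (-0.59 (SE 0.10, adjusted p = 0.000317)) and in RPTi against RP (-0.38 (SE 0.10, adjusted p = 0.013)). The second call was lost without RPTi replicate 2 (-0.35) or RP replicate 3 (-0.27), and RPT against RP did not pass (0.22 (95% interval 0.0084 to 0.42, adjusted p = 0.113)).

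Spc25, a subunit of the same NDC80 complex, was at 20.5, 19.6 and 18.1 CPM in the RPTi libraries, 27.3, 26.7 and 29.7 CPM in the RPT libraries and 21.8, 20.5 and 23.8 CPM in the RP libraries. RPT was above both other groups, and RPTi overlapped RP. It was at -0.52 (SE 0.08, adjusted p = 0.000295) in RPTi against RPT and 0.34 (SE 0.08, adjusted p = 0.00848) in RPT against RP, and -0.18 (95% interval -0.36 to 0.0033, adjusted p = 0.143) in RPTi against RP. The other subunits of that complex did not all have the same order. Nuf2 was at -0.67 in RPTi against RPT and -0.36 in RPTi against RP, both of which passed. The second was lost without RP replicate 1, RP replicate 3, RPTi replicate 1 or RPTi replicate 2 (-0.38 to -0.26). It was also lost with limma on log2(FPKM + 1) without a filter (-0.39). Spc24 rose in RPT against RP (0.56, SE 0.10), fell in RPTi against RPT (-0.37, lost without RPTi replicate 1 at -0.33 or RPTi replicate 3 at -0.33) and did not pass in RPTi against RP, where its value was the highest of the 43 genes (0.19 (95% interval -0.040 to 0.42, adjusted p = 0.218)). Cenpf, a large coiled-coil protein of the outer kinetochore, was at 48.9, 36.0 and 39.3 CPM in the RPTi libraries, 82.2, 54.0 and 25.9 CPM in the RPT libraries and 23.7, 38.7 and 56.3 CPM in the RP libraries. The groups overlapped in every comparison, and RPT replicate 3 was the lowest RPT library, at less than the RP mean. Its intervals were wide, with -0.39 (95% interval -1.14 to 0.37, adjusted p = 0.404) in RPTi against RPT and 0.45 (95% interval -0.30 to 1.20, adjusted p = 0.364) in RPT against RP.

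All 3 tested genes of the chromosomal passenger complex beside Aurkb, which corrects wrong attachments and guides cytokinesis, rose in RPT against RP and fell in RPTi against RPT, and none passed in RPTi against RP, where edgeR had 0 at an unadjusted p below 0.05 and DESeq2 and limma called 0. Birc5, survivin, was at 45.6, 45.4 and 40.9 CPM in the RPTi libraries, 66.6, 72.7 and 66.8 CPM in the RPT libraries and 44.7, 52.1 and 44.7 CPM in the RP libraries. RPT was apart from both other groups, which overlapped each other. It was at -0.64 (SE 0.08, adjusted p = 3.4e-05) in RPTi against RPT, 0.54 (SE 0.08, adjusted p = 0.000252) in RPT against RP and -0.10 (95% interval -0.27 to 0.074, adjusted p = 0.401) in RPTi against RP. Incenp, the scaffold of the complex, was at 86.9, 85.2 and 85.4 CPM in the RPTi libraries, 120.0, 115 and 117 CPM in the RPT libraries and 91.9, 89.1 and 86.9 CPM in the RP libraries. The 3 libraries of each group lay close together, and the ranges of RPTi and RP met without overlap. Its log2 fold changes were -0.45 (SE 0.05, adjusted p = 2.67e-05) in RPTi against RPT, 0.39 (SE 0.05, adjusted p = 0.000164) in RPT against RP and -0.057 (95% interval -0.18 to 0.061, adjusted p = 0.487) in RPTi against RP. Cdca8, borealin, which targets the complex to centromeres, was at 70.8, 75.0 and 66.2 CPM in the RPTi libraries, 98.4, 103 and 88.6 CPM in the RPT libraries and 68.9, 70.0 and 60.8 CPM in the RP libraries. RPT was again apart and RPTi overlapped RP, with -0.45 (SE 0.08, adjusted p = 0.000584) in RPTi against RPT, 0.54 (SE 0.08, adjusted p = 0.000275) in RPT against RP and 0.086 (95% interval -0.088 to 0.26, adjusted p = 0.478) in RPTi against RP.

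Spindle motors and microtubule-associated proteins were the role with the most calls below plasma alone: 5 of 7 fell in RPTi against RP, 7 of 7 fell in RPTi against RPT and 4 of 7 rose in RPT against RP. Kif20a, the MKLP2 motor of the central spindle, was at 162, 168 and 152 CPM in the RPTi libraries, 217, 209 and 229 CPM in the RPT libraries and 178, 174 and 179 CPM in the RP libraries. The groups did not overlap. It was at -0.44 (SE 0.06, adjusted p = 5.36e-05) in RPTi against RPT and 0.30 (SE 0.06, adjusted p = 0.00188) in RPT against RP, but did not pass in RPTi against RP, at -0.14 (95% interval -0.27 to -0.015, adjusted p = 0.097). Prc1, which bundles the microtubules of the central spindle, was at 148, 148 and 155 CPM in the RPTi libraries, 214, 196 and 241 CPM in the RPT libraries and 171, 162 and 176 CPM in the RP libraries. All 3 groups stood apart here too, with -0.53 (SE 0.07, adjusted p = 8.08e-05) in RPTi against RPT, 0.36 (SE 0.07, adjusted p = 0.00276) in RPT against RP and -0.17 (95% interval -0.33 to -0.014, adjusted p = 0.107) in RPTi against RP. Without RPT replicate 3 the last value passed (-0.17, adjusted p = 0.0317), as did that of Cdk1 (-0.15, adjusted p = 0.0438).

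Kif2c, the MCAK depolymerase that frees wrongly attached microtubules, was at 29.5, 32.9 and 33.2 CPM in the RPTi libraries, 51.3, 48.0 and 52.8 CPM in the RPT libraries and 40.1, 39.9 and 39.5 CPM in the RP libraries. The RP libraries lay within 1 CPM of each other, above every RPTi library and below every RPT library. It passed in every comparison, at -0.67 (SE 0.07, adjusted p = 7.9e-06) in RPTi against RPT, -0.32 (SE 0.07, adjusted p = 0.00547) in RPTi against RP and 0.35 (SE 0.07, adjusted p = 0.00256) in RPT against RP. The bipolar spindle motor Kif11, the chromokinesin Kif4a and the central spindle motor Kif23 fell in both comparisons of RPTi and did not pass in RPT against RP. Their values were -0.41, -0.53 and -0.68 in RPTi against RPT and -0.27, -0.40 and -0.42 in RPTi against RP. The RPTi against RP call of Kif11 was lost without any 1 RPTi library or RP replicate 3 (-0.30 to -0.17). It was also lost with limma on log2(FPKM + 1) without a filter (-0.29). Tpx2, the activator of Aurora A, passed in all comparisons, with -0.64 in RPTi against RPT, -0.38 in RPTi against RP and 0.26 in RPT against RP. Its call in RPT against RP was lost without RP replicate 1, RP replicate 2, RPT replicate 3 or RPTi replicate 1 (0.17 to 0.26). It was also lost with limma on log2(FPKM + 1) without a filter (0.27). 

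Condensin and topoisomerase II, which compact and untangle chromosomes, had the smallest share of calls of any role in RPTi against RPT and in RPT against RP. Of the 5 genes, 2 fell in RPTi against RPT (40.0%, against 21.1% of all tested genes). In RPT against RP 1 rose (20.0%, near the 13.6% of all tested genes). None passed in RPTi against RP, where 12.3% of all tested genes fell. There 1 was lower at an unadjusted p below 0.05, and DESeq2 and limma each called 1 lower. Top2a, topoisomerase II alpha, was at 172, 154 and 184 CPM in the RPTi libraries, 263, 228 and 231 CPM in the RPT libraries and 199.7, 184 and 230.4 CPM in the RP libraries. RPTi stood below both other groups, and RP replicate 3 reached into the RPT range. It fell in RPTi against RPT (-0.50 (SE 0.09, adjusted p = 0.00079)), and lay at 0.23 (95% interval 0.034 to 0.43, adjusted p = 0.0759) in RPT against RP and -0.27 (95% interval -0.47 to -0.069, adjusted p = 0.0511) in RPTi against RP. The last value passed without RP replicate 2 (-0.34), RPTi replicate 3 (-0.33) or any 1 RPT library (-0.27). Ncapd2, a regulatory subunit of condensin I, was at 139, 143 and 138 CPM in the RPTi libraries, 186, 189 and 168 CPM in the RPT libraries and 147, 154 and 139 CPM in the RP libraries. RPT stood above the rest, and RPTi overlapped RP. It was at -0.37 (SE 0.06, adjusted p = 0.000464) in RPTi against RPT, 0.30 (SE 0.06, adjusted p = 0.0031) in RPT against RP and -0.065 (95% interval -0.20 to 0.072, adjusted p = 0.495) in RPTi against RP. The condensin core genes Smc2 and Smc4 and the subunit gene Ncapg passed nowhere, with values of -0.21, -0.20 and -0.25 in RPTi against RPT. Ncapg passed in that comparison without RPT replicate 3 (-0.58, adjusted p = 0.0322).

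The cytokinesis genes all fell in RPTi against RPT (3 of 3), 2 rose in RPT against RP and 2 fell in RPTi against RP. Anln, anillin, which scaffolds the contractile ring, was at 148, 150.2 and 151 CPM in the RPTi libraries, 260.0, 238 and 269.6 CPM in the RPT libraries and 200.1, 188 and 221 CPM in the RP libraries. The RPTi libraries lay close together and under every other library. It passed in every comparison, at -0.77 (SE 0.07, adjusted p = 1.66e-06) in RPTi against RPT, -0.44 (SE 0.07, adjusted p = 0.000534) in RPTi against RP and 0.33 (SE 0.07, adjusted p = 0.00287) in RPT against RP. Ect2, the exchange factor that activates RhoA at the division plane, was at 47.4, 48.5 and 52.2 CPM in the RPTi libraries, 72.6, 63.1 and 72.9 CPM in the RPT libraries and 60.1, 59.1 and 73.7 CPM in the RP libraries. RP replicate 3 was above every RPT library, and RPTi stood apart below. It fell in RPTi against RPT (-0.50 (SE 0.09, adjusted p = 0.000961)) and in RPTi against RP (-0.38 (SE 0.09, adjusted p = 0.0101), lost without RPTi replicate 1, -0.36, adjusted p = 0.0516), and lay at 0.11 (95% interval -0.087 to 0.31, adjusted p = 0.399) in RPT against RP. Racgap1, the partner that brings Ect2 to the central spindle, was at 24.2, 25.3 and 32.0 CPM in the RPTi libraries, 40.7, 41.0 and 42.9 CPM in the RPT libraries and 27.0, 26.7 and 27.4 CPM in the RP libraries. It had the highest log2 fold change of the 43 genes in RPT against RP, 0.62 (SE 0.09, adjusted p = 0.000352). It fell in RPTi against RPT (-0.61 (SE 0.10, adjusted p = 0.000221)), and in RPTi against RP, where the groups overlapped, it lay at 0.0085 (95% interval -0.20 to 0.22, adjusted p = 0.96). 

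Foxm1, the transcription factor that acts with B-MYB and MuvB on late cell cycle genes, was at 70.7, 73.6 and 69.5 CPM in the RPTi libraries, 85.5, 81.7 and 77.6 CPM in the RPT libraries and 64.0, 66.5 and 64.1 CPM in the RP libraries. All 3 groups stood apart, but in another order from the genes above, with RPTi above RP. It rose in RPT against RP (0.33 (SE 0.06, adjusted p = 0.00141)), fell in RPTi against RPT (-0.20 (SE 0.06, adjusted p = 0.0214)) and did not pass in RPTi against RP (0.14 (95% interval 0.0033 to 0.27, adjusted p = 0.127)). Its fall in RPTi against RPT was the smallest of the 38 and was lost without RPT replicate 1 (-0.16), RPTi replicate 1 (-0.19) or RPTi replicate 3 (-0.18). Mki67, the Ki-67 antigen that coats mitotic chromosomes and is used to mark dividing cells, was at 218, 173 and 214 CPM in the RPTi libraries, 399, 312 and 198 CPM in the RPT libraries and 191, 243 and 289 CPM in the RP libraries. RPT replicate 3 lay within the ranges of both other groups and RPT replicate 1 far above them, so all groups overlapped. Its call in RPTi against RPT, -0.59 (SE 0.21, adjusted p = 0.0364), was lost without any 1 of the RPTi libraries, RPT replicate 1 or RPT replicate 2 (-0.65 to -0.34). It was also lost with DESeq2 (adjusted p = 0.0734) and with limma on log2(FPKM + 1) without a filter (adjusted p = 0.117). In RPT against RP, Mki67 was at 0.33 (95% interval -0.11 to 0.78, adjusted p = 0.258), and passed without RPT replicate 3 (0.56).

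Levels between the genes, compared per length, differed more than any gene did between groups. Next to Cdk1, the highest RPT means were Cdc20 at 84.2 ± 10.6 FPKM, Birc5 at 80.3 ± 3.57 FPKM and Kif20a at 76.2 ± 3.53 FPKM (SD, n = 3). The lowest were Ncapg at 4.69 ± 2.38 FPKM, Cenpf at 5.49 ± 2.91 FPKM and Cenpe, the plus-end kinetochore motor, at 5.97 ± 2.77 FPKM. The step from Cdk1 to Cdc20 and the order of the 3 after Cdk1 lie within their SDs. So does the step from Kif20a to Prc1 (75.7 ± 7.91 FPKM) and Anln (75.5 ± 5.02 FPKM).

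The genes with the widest spread between replicates were largely those that failed the tests. The within-group SD of log2 CPM had a median of 0.113 over the 43 genes and 0.135 over all tested genes. It was above 0.2, a limit set after the values were seen, for 8 genes: Cenpf (0.620), Cenpe (0.539), Ncapg (0.524), Smc4 (0.505), Smc2 (0.401), Mki67 (0.359), Ttk (0.276) and Bub1 (0.235). The next was Nuf2 at 0.171. None of the 8 passed in RPT against RP, where 26 of the 35 others did. In RPTi against RPT, 3 of the 8 and all 35 others passed, and in RPTi against RP none of the 8 and 14 of the 35. The 8 genes moved together by library: each was below its group mean in RPT replicate 3, RPTi replicate 2 and RP replicate 1, and each was above it in RPT replicate 1 and RP replicate 3. The median deviation on the log2 scale was 0.54 in RPT replicate 1, -0.55 in RPT replicate 3, -0.39 in RP replicate 1 and 0.49 in RP replicate 3, against 0.10, -0.16 and 0.06 in RPTi replicates 1, 2 and 3. The gene lengths of the 8, derived from the counts and FPKM, had a median of 4933 bases (3350 to 10069), against 2901 bases for the other 35. Across the 43 genes, which share the 9 libraries, SD and length had a Spearman rho of 0.30, and across the 8558 tested genes with at least 10 CPM it was -0.15. Across those 8558 genes, deviations in RPT replicate 1 and RP replicate 1 correlated at -0.47, so their opposition was not particular to the 8 genes. Whether the other 35 genes moved in the same way by library was not examined. The part of length, of RNA quality or of the state of single cultures in the spread of the 8 genes was not tested.

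**Figure D5:**
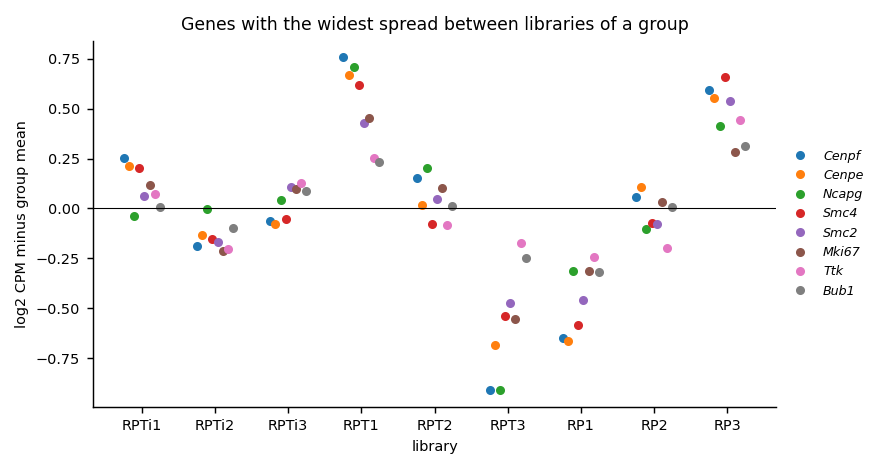
Deviation of log2 CPM from the group mean in each of the 9 libraries, for the 8 genes whose within-group SD was above 0.2, 1 colour per gene, with genes offset sideways within a library. All 8 lie above 0 in RPT1 and RP3 and below 0 in RPT3, RPTi2 and RP1, while the RPTi libraries lie close to 0.

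Other genes of the same processes were read from 7 lists with 141 tested rows, none of them among the 43. Genes named from them passed in the comparison given unless stated. In RPT against RP, 53 rose (37.6%) and 2 fell (1.42%), with a median log2 fold change of 0.17, where 13.6% of all tested genes rose and 15.2% fell. In RPTi against RPT, 76 fell (53.9%) and 7 rose (4.96%), with a median of -0.30, where 21.1% of all tested genes fell and 20.4% rose. Between RPTi and RP, 23 fell in RPTi (16.3%) and 6 rose (4.26%), with a median of -0.11, so the share that fell was near the 12.3% of all tested genes, of which 11.9% rose. The 55 calls in RPT against RP became 34 without RP replicate 1. The 29 calls in RPTi against RP became 17 without RP replicate 1, 11 without RP replicate 3, 13 without RPTi replicate 1, 16 without RPTi replicate 2 and 19 without RPTi replicate 3.

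Regulators of CDK1 and of mitotic entry and exit had 14 of 18 lower in RPTi against RPT, 9 of 18 higher in RPT against RP and 6 of 18 lower in RPTi against RP. Fbxo5, the EMI1 inhibitor of the APC/C, was at -0.67, SE 0.09 in RPTi against RPT and 0.40, SE 0.09 in RPT against RP, and Gtse1, a microtubule-binding protein of G2 and mitosis, was at -0.61, SE 0.08 in RPTi against RPT. Of the kinetochore, centromere and checkpoint genes outside the 43, 23 of 33 (69.7%) fell in RPTi against RPT and 19 (57.6%) rose in RPT against RP. In RPTi against RP 2 fell (6.06%), below the 12.3% of all tested genes. Trip13, the ATPase that remodels MAD2, was at -0.79, SE 0.08 in RPTi against RPT and 0.58, SE 0.08 in RPT against RP. Cenpn, which binds the CENP-A nucleosome, was at -0.73, SE 0.09 and 0.58, SE 0.09 in the same comparisons. Spindle and centrosome genes fell in 20 of 29 cases (69.0%) in RPTi against RPT and rose in 11 (37.9%) in RPT against RP. In RPTi against RP, 6 fell (20.7%, against 12.3% of all tested genes), among them the spindle pole gene Aspm (-0.52, SE 0.10). The kinesin gene Kif18b was the 1 that rose there (0.22, SE 0.06), while 11.9% of all tested genes rose. With limma on log2(FPKM + 1), 0 genes of this list were called higher there. Stmn1, stathmin, which destabilises microtubules, was at 171 ± 6.79 CPM in RPTi, 261 ± 8.07 CPM in RPT and 176 ± 9.68 CPM in RP (SD, n = 3), with -0.61, SE 0.06 in RPTi against RPT and 0.57, SE 0.06 in RPT against RP. Of 17 condensin and cohesin genes, 7 (41.2%) fell in RPTi against RPT, 5 (29.4%) rose in RPT against RP and 5 (29.4%) fell in RPTi against RP. Ncapg2 of condensin II was at -0.71, SE 0.08 in RPTi against RPT.

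Only 1 gene each of the core APC/C subunits and of the cytokinesis and abscission genes fell in RPTi against RPT. The difference of these 2 lists from the others was not tested. Of 15 APC/C genes, 5 rose in RPTi against RPT and 1 fell (median 0.07), 2 rose and 1 fell in RPT against RP (median -0.07), and 3 rose and 1 fell in RPTi against RP (median 0.11). The shares that rose were 33.3%, 13.3% and 20.0% in these comparisons, against 20.4%, 13.6% and 11.9% of all tested genes. The share that fell was 6.67% each time, against 21.1%, 15.2% and 12.3% of all tested genes. Over the 3 groups, 46.7% of the APC/C genes differed in the F test, the same as the 46.7% of all tested genes. Anapc16, a small subunit, was at 0.48, SE 0.08 in RPTi against RPT and 0.72, SE 0.08 in RPTi against RP, and the subunit genes Anapc5 and Cdc16 were at 0.26, SE 0.06 and 0.31, SE 0.08 in RPTi against RPT. In RPT against RP the one that fell was Anapc1, the largest subunit (-0.22, SE 0.07). Cytokinesis and abscission genes, which also serve the cytoskeleton outside mitosis, had 2 of 11 higher and 1 lower in RPTi against RPT (median 0.06), 2 higher and 0 lower in RPTi against RP (median 0.12), and 2 higher and 0 lower in RPT against RP (median 0.04). The share that was higher was 18.2% each time, against 20.4%, 11.9% and 13.6% of all tested genes. In RPTi against RPT 9.09% were lower, against 21.1% of all tested genes. At an unadjusted p below 0.05, 0 were lower in either comparison with RP, and DESeq2 and limma called 0 lower there. Arhgef2, a microtubule-bound activator of RhoA, rose in all comparisons, at 0.31, SE 0.07 in RPTi against RPT, 0.74, SE 0.07 in RPTi against RP and 0.43, SE 0.07 in RPT against RP. 

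Of the 18 MuvB, B-MYB, E2F and RB family genes, which regulate cell cycle transcription, 10 fell in RPTi against RPT, 5 rose and 1 fell in RPT against RP, and 3 fell in RPTi against RP. The shares that fell were 55.6% in RPTi against RPT, where 21.1% of all tested genes fell, and 16.7% in RPTi against RP, near the 12.3% of all tested genes. In RPT against RP 27.8% rose, where 13.6% of all tested genes did. Mybl2, B-MYB, was at 77.2 ± 4.39 CPM in RPTi, 115 ± 6.78 CPM in RPT and 68.3 ± 6.47 CPM in RP (SD, n = 3), with -0.58, SE 0.08 in RPTi against RPT and 0.75, SE 0.08 in RPT against RP. Rbl2, the p130 protein of the repressing DREAM complex, fell in RPT against RP (-0.45, SE 0.10) and in RPTi against RP (-0.36, SE 0.10). E2f5 was at -0.81, SE 0.11 in RPTi against RPT and -0.45, SE 0.11 in RPTi against RP.

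Most genes of DNA replication, which precedes mitosis, fell in RPTi against RPT and rose in RPT against RP. Of 40, 36 fell (90.0%) and none rose in RPTi against RPT (median -0.42), where 21.1% of all tested genes fell, and 28 rose (70.0%) and none fell in RPT against RP (median 0.33), where 13.6% of all tested genes rose. Only 6 fell and 1 rose in RPTi against RP (median -0.09), so the share that fell was near the 12.3% of all tested genes. The one that rose was Cdc45, a subunit of the replication helicase (0.37, SE 0.08), and Mcm4, another, was at -0.47, SE 0.09 in the same comparison. The 2 with the highest level, Rrm1 and Tk1, which supply nucleotides, were at -0.47, SE 0.08 and -0.030, SE 0.08 in RPTi against RPT, of which Tk1 did not pass. The difference between the replication and mitosis genes was not tested.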

How the data were processed

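The deposited table pairs raw read counts for each Ensembl rat gene with the authors' FPKM values for the same 9 libraries. Per the submitters' processing notes the build was Rnor_6.0 and HISAT2, HTSeq 0.11.2 and DESeq2 1.26.0 were used, with no roles stated. Per the labels' protocols, poly-A RNA was sequenced as paired reads. The sources used here do not give the annotation release or strand setting, so reads of overlapping or antisense genes and near-identical copies are uncertain. Gene lengths were derived from the counts and the FPKM values, and lay within 0.001 of a whole number for all 18924 genes. FPKM recomputed with these lengths differed by at most 2.55e-13 in relative terms. Since no independent lengths were used, this shows only that 1 length per gene holds in every library. Groups and replicate numbers came from the sample titles.

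Counts were tested in edgeR 4.0.16 (R 4.3.3): filterByExpr (minimum count 10, minimum total 15) kept 13856 of 18924 genes, libraries were scaled by TMM, and 1 quasi-likelihood model with a coefficient per group was fitted to all 9 libraries. Adjusted p-values are Benjamini-Hochberg over all 13856 genes, those below 0.05 are called, and all single-gene values come from this fit unless another tool is named. SE is the size of the log2 fold change over the square root of its F, and 95% intervals are not adjusted for the number of genes. CPM and FPKM carry the SD over 3 libraries. The model was tested on simulated counts for RPT against RP (13662 genes), with 8 false calls. It recovered 10.8% of 65 genes changed 1.25-fold, 55.2% of 67 changed 1.5-fold and 81.8% of 66 changed 2-fold. So few genes were changed there, against 28.9% called in the data, that these shares cannot be carried over to the data. Small changes can still be missed. In RPT against RP, Bub3 passed at 1.15-fold and Kif20a at 1.23-fold, while Kif23 at 1.19-fold did not.

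The genes, role groups, pathway, replication and marker lists were chosen with earlier results of these data known. Of 147 listed pathway symbols, Arpp19, Cenpp, Cenpq, Cenps, Cenpx, Chmp4b and E2f1 matched no row, 3 septins matched older symbols and Spag5 has 2 rows. Values in every library are given for the 2 genes of each role with the highest mean CPM and the 2 with the smallest F-test p, and pathway genes are named from the 3 smallest p per list and comparison or for opposing their list. Genes added for a library that decides their call, and the genes of the spread description, were chosen after their values were seen. Alternatives were DESeq2 size factors, library totals alone, no filter, at least 1 CPM in 3 libraries, DESeq2 1.42.0, limma 3.58.1 on log2(FPKM + 1) with and without a filter and on log2(FPKM + 0.1), only the 2 groups compared, a replicate block, and leaving out each library.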

Additional observations from a re-analysis of the deposited data

How the results depend on the processing

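Across all settings, 23 of the 26 genes called in RPT against RP were called every time, as were 31 of 38 in RPTi against RPT and 7 of 14 in RPTi against RP. Leaving out 1 library at a time gave 32 to 39 genes lower in RPTi against RPT, 8 to 18 lower in RPTi against RP and 23 to 32 higher in RPT against RP, 0 in the opposite direction each time, and 34 to 38 over the 3 groups. The count of 14 in RPTi against RP was 22 with limma on log2(FPKM + 1) and on log2(FPKM + 0.1), and the summed level of RPTi was 2848 CPM with library totals alone. For the pathway genes outside the 43, leaving out a library gave 67 to 88 calls in RPTi against RPT, 11 to 42 in RPTi against RP and 34 to 53 in RPT against RP. The 7 replication calls in RPTi against RP were 13 with library totals alone, with log2(FPKM + 1) and with log2(FPKM + 0.1), 11 with only the 2 groups compared, and 7 to 11 when leaving out a library. The cause was not tested.

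The labels do not say whether replicate numbers pair the libraries, and they were not taken as pairs, since correlations of same-numbered deviations were above 0.1 for only 6 of 9 pairs. All 6 pairs of replicates 2 and 3 lay at 0.19 to 0.61, while RPT replicate 1 and RP replicate 1 had -0.47, and 6 of 9 libraries correlated best with their own number, a hint from the data and not the design. With a replicate block, 38 genes were lower in RPTi against RPT, 20 lower in RPTi against RP, 32 higher in RPT against RP and 37 differed over the 3 groups, and the pathway and replication calls in RPTi against RP were 52 and 12.

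Signs turned only for values near 0 or of wide spread, none of them called. Cdc25c in RPTi against RP was at -0.029 with library totals alone, -0.026 with log2(FPKM + 1) with or without a filter, and -0.028 with log2(FPKM + 0.1), and Racgap1 was at -0.044, -0.050 and -0.055 there. Ncapg in RPT against RP was at -0.016 with log2(FPKM + 0.1). Leaving out 1 library gave these ranges. In RPTi against RPT they were -0.72 to 0.052 for Cenpf, -0.56 to 0.12 for Cenpe, -0.43 to 0.17 for Smc4, -0.41 to 0.030 for Smc2 and -0.58 to 0.15 for Ncapg. In RPTi against RP they were -0.20 to 0.41 for Cenpf, -0.17 to 0.42 for Cenpe, -0.38 to 0.27 for Smc4, -0.31 to 0.21 for Smc2, -0.32 to 0.067 for Ncapg, -0.022 to 0.056 for Cdc25c and -0.13 to 0.083 for Racgap1. In RPT against RP they were -0.012 to 0.70 for Cenpe, -0.31 to 0.47 for Smc4, -0.13 to 0.42 for Smc2 and -0.32 to 0.41 for Ncapg. Each of these genes had at least 7 CPM in every library, and the part of depth was not tested. The number of libraries a group (3) and their unstated origin limit how far a missed call can be read.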
